A study of Homo sapiens with 4 samples.

Results

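The data described here are lamin B1 chromatin immunoprecipitation and sequencing (ChIP-seq) values over a gene-dense stretch of chromosome band 11q13 in 2 human prostate cancer cell lines. The stretch was chosen on the same lamin B1 values, as the place where VCaP was in the lamin-associated state and LNCaP was not over a long run of bins. Its difference between the lines is therefore given as a description, with no test. The window runs on chromosome 11 from 62000001 to 69480000 (hg19) and holds 187 bins of 40 kb, of the 71569 bins measured in both cell lines. The block inside it runs from 63160001 to 68280000 and holds 128 bins (5.12 Mb). The other 59 bins flank it, 29 to the left and 30 to the right. Left and right mean lower and higher coordinates. The 4 genes followed through it are MEN1, NEAT1, MALAT1 and GSTP1.

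The established line LNCaP comes from a prostate adenocarcinoma, and VCaP, also established, from a prostate cancer that had spread to bone. Both were untreated and grown to near confluence, LNCaP in RPMI and VCaP in DMEM F12:Ham, so the line and its medium cannot be told apart. Each line has 1 library immunoprecipitated with a lamin B1 antibody, from several pooled reactions, and 1 input library without antibody, 4 libraries in all. Cells were fixed with 1% formaldehyde for 10 min. Each value is the log2 enrichment of the immunoprecipitated library over the input of the same line, as deposited. How the libraries were scaled to each other is not given, so what a value of 0 stands for is not known. The files give 1 value per bin and line, with no replicate and no read depth. The only error available is the noise between bins of 1 library, estimated from bins 3 apart. It has an SD of 0.15 log2 units in LNCaP, 0.22 in VCaP and 0.27 for the difference between them, and it says nothing of how repeated experiments would vary. No markers of the cell type can be read from these values.

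Lamin B1 is a filament protein of the nuclear lamina, the mesh that lines the inside of the nuclear envelope. Chromatin that touches the lamina is as a rule poor in genes, late replicating and little transcribed, and gene-rich chromatin usually lies in the nuclear interior. NEAT1 and MALAT1 are long noncoding RNAs that stay in the nucleus: NEAT1 is the scaffold of paraspeckles, and MALAT1 collects in nuclear speckles, which are rich in splicing factors. MEN1 encodes menin, a tumour suppressor lost in multiple endocrine neoplasia and a partner of histone methyltransferase complexes. GSTP1 encodes a glutathione S-transferase that conjugates electrophiles, and methylation of its promoter is a common mark of prostate cancer.

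The promoters of the members are shown because they carry a feature that did not enter the choice of the block, the density of CG dinucleotides, which are the sites of DNA methylation. The sequences are RefSeq's for GRCh38.p14, matched by symbol, and their positions in that build cannot be set against the hg19 bins. The table held windows of 300 bases, 250 before and 50 after a start site, for 3 of the 4 members. NEAT1 had no entry. Capitals mark each CG. The MEN1 window lies on the minus strand of chr11:64810502-64810801 and is 1 of 2 for this gene. The MALAT1 window lies on the plus strand of chr11:65497488-65497787 and the GSTP1 window on the plus strand of chr11:67583562-67583861, both at the gene's own start.
MEN1: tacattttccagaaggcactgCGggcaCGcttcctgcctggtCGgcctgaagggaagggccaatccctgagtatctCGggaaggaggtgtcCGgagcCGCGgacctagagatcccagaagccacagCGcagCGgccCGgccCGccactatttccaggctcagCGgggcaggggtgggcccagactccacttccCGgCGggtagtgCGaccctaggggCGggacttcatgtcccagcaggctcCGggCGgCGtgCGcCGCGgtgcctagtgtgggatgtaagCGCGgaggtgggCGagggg
MALAT1: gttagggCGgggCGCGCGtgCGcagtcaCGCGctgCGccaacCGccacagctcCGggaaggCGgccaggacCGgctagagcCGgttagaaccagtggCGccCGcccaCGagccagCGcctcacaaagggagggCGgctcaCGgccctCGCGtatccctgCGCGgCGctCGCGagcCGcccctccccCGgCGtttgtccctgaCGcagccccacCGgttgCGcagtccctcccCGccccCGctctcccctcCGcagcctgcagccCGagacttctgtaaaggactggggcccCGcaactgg
GSTP1: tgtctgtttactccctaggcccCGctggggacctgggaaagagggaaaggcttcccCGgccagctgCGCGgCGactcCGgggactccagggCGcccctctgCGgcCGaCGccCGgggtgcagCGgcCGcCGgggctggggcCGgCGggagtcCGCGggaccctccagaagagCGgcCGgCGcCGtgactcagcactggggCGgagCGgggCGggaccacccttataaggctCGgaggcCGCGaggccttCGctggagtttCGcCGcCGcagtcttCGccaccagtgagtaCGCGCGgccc

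These 3 windows were rich in CG. MEN1 held 25 CG at 68.0% GC, MALAT1 held 37 at 73.7% and GSTP1 held 36 at 74.0%. Over the 35116 promoters of the table the median was 14 CG and 58.7% GC. Fewer CG stood in 68.0% of promoters than in that of MEN1, in 88.7% than in that of MALAT1 and in 87.3% than in that of GSTP1. The letters GGGCGG or CCGCCC, the same motif on either strand, occurred 2 times in MEN1, 5 times in MALAT1 and 2 times in GSTP1, and at least once in 45.0% of all promoters. The other windows of MEN1 and MALAT1 held 20 and 14 CG. A bin of 40 kb cannot resolve a promoter, so the lamin B1 values below are those of the gene and its surroundings.

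The block was low in LNCaP and high in VCaP. In LNCaP the mean log2 enrichment over the 128 bins was -1.06 (SD over bins 0.32), and single bins lay between -1.77 and -0.17. In VCaP the mean was 0.62 (SD over bins 0.29), with bins between -0.07 and 1.29. The deposited state, from a hidden Markov model, was the associated one in 0 of 128 bins in LNCaP and in 128 of 128 in VCaP. That contrast is how the block was found, and over all common bins 23.8% were associated in VCaP only. The mean difference, VCaP minus LNCaP, was 1.67 (SD over bins 0.33, noise SD of the mean 0.04). It exceeded 2 noise SD, a difference of 0.54, in 127 of 128 bins, against 19.1% of all common bins, and it exceeded 1 in 125 of 128, against 3.84%. The difference was not confined to the block. Of the 59 flanking bins, 35 (59.3%) exceeded 2 noise SD and 19 (32.2%) exceeded 1. All 19 lay on the right flank, where the mean difference was 1.00, against 0.32 on the left.

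**Figure D1:**
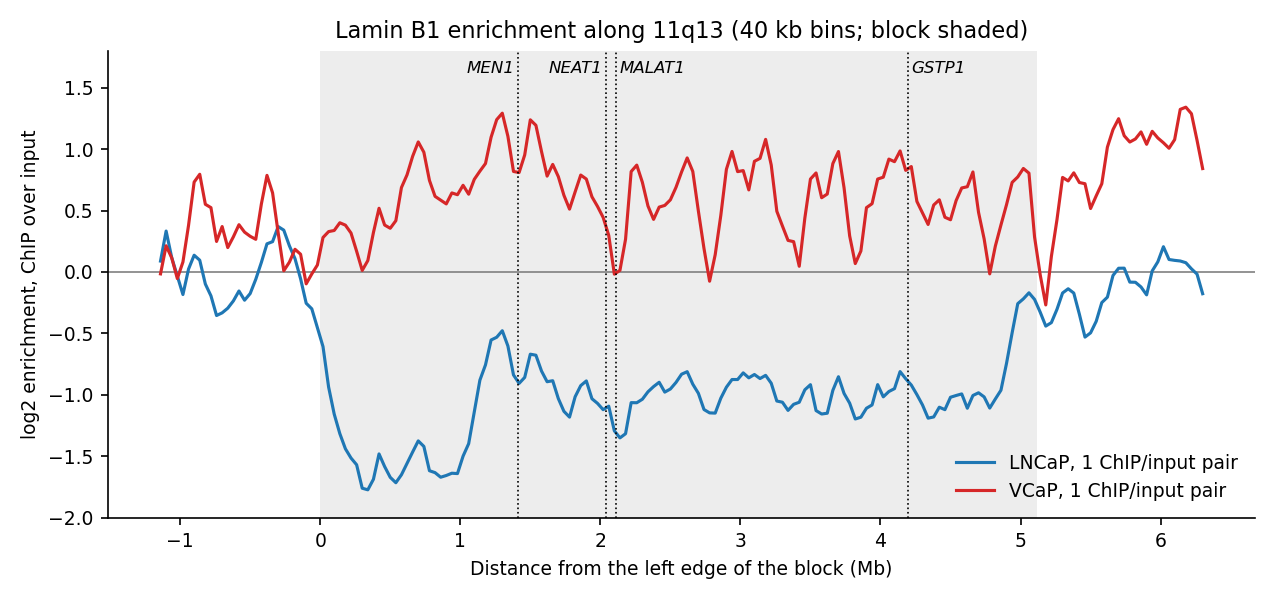
Log2 lamin B1 enrichment in 40 kb bins (y axis) against the distance from the left edge of the block in Mb (x axis), with 1 line per cell line, the block shaded and dotted lines at the 4 genes. LNCaP falls at the left edge to a lowest bin of -1.77 and recovers before the right edge, whereas VCaP is about as high inside the block (mean 0.62) as beside it (mean 0.58).

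The 2 lines did not contribute alike. In LNCaP the flanking bins averaged -0.09 (SD over bins 0.22), so the block lay 0.97 log2 units below its surroundings (inside minus outside -0.97). In VCaP the flanking bins averaged 0.58 (SD over bins 0.44), and inside minus outside was 0.03. That is far less than the spread of the VCaP bins, and its sign turned (-0.0502) when 5 bins on either side of each edge were left out. The flanks of VCaP were unequal, with a mean of 0.29 on the left and 0.87 on the right. On the right, 17 adjacent bins from 68760001 to 69440000 all lay over 1 in VCaP, with a mean of 1.13, and LNCaP averaged 0.0013 there.

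Set against other sequence, the LNCaP values were the more extreme. Over the rest of chromosome 11 (3102 bins) the mean was 0.11 in LNCaP and 0.23 in VCaP, and the difference there averaged 0.12. Only 0.555% of all common bins had a LNCaP value below the block's mean, whereas 82.3% had a VCaP value below the block's mean. LNCaP was below -0.5 in 122 of the 128 bins, against 4.90% of all common bins, and in 1 of the 59 flanking bins. The VCaP bins of the block overlap the bulk of the genome's bins and the LNCaP bins mostly do not.

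**Figure D2:**
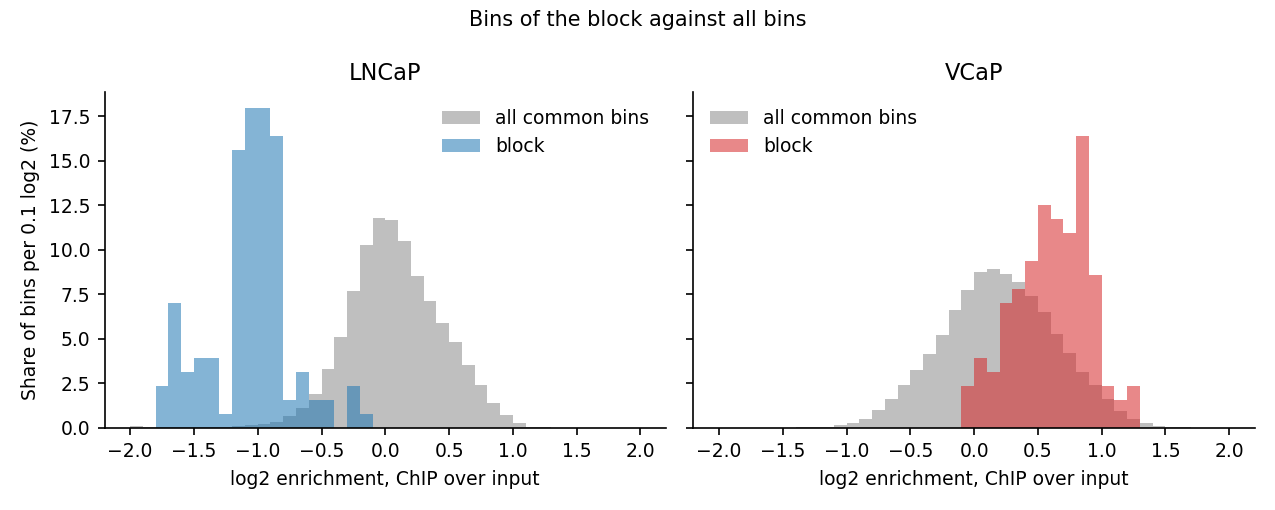
Share of bins in percent (y axis) per step of 0.1 in log2 enrichment (x axis), for all 71569 common bins (grey) and the 128 bins of the block (coloured), LNCaP left and VCaP right; values beyond 2 in either direction are drawn in the last bar. The LNCaP bins of the block form groups near -1.6 and near -1.0, and those of VCaP sit in the upper part of the genome's range.

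The 4 genes lie well inside the block. MEN1 (64570000 to 64579000) starts 1.41 Mb from the left edge. NEAT1 (65190000 to 65214000) and MALAT1 (65265000 to 65274000) are neighbours near its middle, at 2.03 and 2.105 Mb. GSTP1 (67351000 to 67355000) ends 0.925 Mb before the right edge. NEAT1 spans 2 bins and the others lie in 1 bin each. All 5 bins were outside the associated state in LNCaP and inside it in VCaP, as were all bins of the block.

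MEN1 had a log2 enrichment of -0.91 in LNCaP against 0.81 in VCaP, which differ by 1.72. On a linear scale this is a ratio to the input, as scaled by the submitters, of 0.534 in LNCaP and 1.75 in VCaP. Only 0.870% of all common bins were lower in LNCaP, and 91.2% were lower in VCaP. The bins around MEN1 were uneven. The 7 bins from 3 before to 3 after the gene were compared as deposited. MEN1's own bin was the lowest in both lines and the bin 3 before it the highest, and the order of those between differed. In VCaP the bin just before the gene was nearly as low, at 0.818 against 0.809. The highest bin held -0.48 in LNCaP and 1.29 in VCaP, which is the highest deposited VCaP value of the block. The bin 2 after the gene held -0.67 and 1.24. The low at the gene rests on the bins before it, as each deposited value is a mean over 3 bins. With that mean undone the lowest of the 7 was the bin just before the gene, at -1.21 in LNCaP and 0.50 in VCaP. MEN1's own bin then held -0.83 and 0.99.

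NEAT1 had -1.10 in LNCaP against 0.36 in VCaP on the same log2 scale, which differ by 1.46. The first of its 2 bins held -1.12 and 0.44, and the next held -1.09 and 0.30. NEAT1 lay on a slope: VCaP fell from 0.76 in the bin 3 before the gene to -0.02 in the bin after it, and LNCaP from -0.89 to -1.29 over the same bins.

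MALAT1 had the lowest log2 enrichment of the 4 genes in each line, -1.29 in LNCaP against -0.02 in VCaP, which differ by 1.27. The VCaP value was under 0 even though the bin carried the associated label, and only 1 of the 128 bins of the block was lower. Its sign is not firm, as the mean of 5 bins around it was 0.20. In LNCaP 26 bins of the block were lower. On these deposited values the VCaP low was in the bin of MALAT1. The LNCaP low was 1 bin further on, at -1.35, and the bin after that held -1.32. The bin 4 after the gene held 0.87 in VCaP and -1.06 in LNCaP.

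GSTP1 had a log2 enrichment of -0.87 in LNCaP against 0.83 in VCaP, which differ by 1.70. On a linear scale this is a ratio to the input, as scaled by the submitters, of 0.548 and 1.77. As deposited, 101 of the 128 bins of the block were lower in LNCaP and 99 in VCaP. This rank rests on the bins before the gene: each deposited value is a mean over 3 bins, and with that mean undone only 54 were lower in LNCaP and 32 in VCaP.

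The order of the genes by level was the same in both lines, from MALAT1 over NEAT1 and MEN1 to GSTP1. No neighbours in that order differed by more than 2 noise SD, with the noise taken as that of 2 bins that share no entries. In LNCaP the gaps were 0.19, 0.20 and 0.04 with a noise SD of 0.21. In VCaP they were 0.38, 0.45 and 0.02 with a noise SD of 0.32. NEAT1 and MALAT1 lie in adjacent bins, whose deposited values share entries, so this noise SD is too large for their gap. Estimated from adjacent bins, the noise SD of 1 bin was 0.07 in LNCaP and 0.11 in VCaP.

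The deposited values are running means. Each was found to be the mean of its own bin and the 2 before it, so a narrow feature is flattened and pushed to higher coordinates. Undoing this mean narrowed the low and put it in the bin of MALAT1 in both lines. There the value became -1.66 in LNCaP and -0.47 in VCaP, while the bins on either side held -1.21 and -1.19 in LNCaP and -0.02 and 0.53 in VCaP. Only 1 bin of the block was lower in VCaP and 9 were lower in LNCaP. NEAT1 became -1.13 and 0.17, MEN1 -0.83 and 0.99, and GSTP1 -1.06 and 0.37. The order from MALAT1 up was then NEAT1, GSTP1 and MEN1 in both lines. The gap of 0.532 between MALAT1 and NEAT1 in LNCaP only just exceeded 2 noise SD (noise SD 0.260). The gap of 0.64 in VCaP did not (noise SD 0.38). Single undone values also rest on an assumption, as a running mean alone does not fix them fully. Whether that assumption alters these gaps was not tested. The LNCaP gap is therefore not firmly past the noise, and no contrast between the lines is drawn from it.

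**Figure D3:**
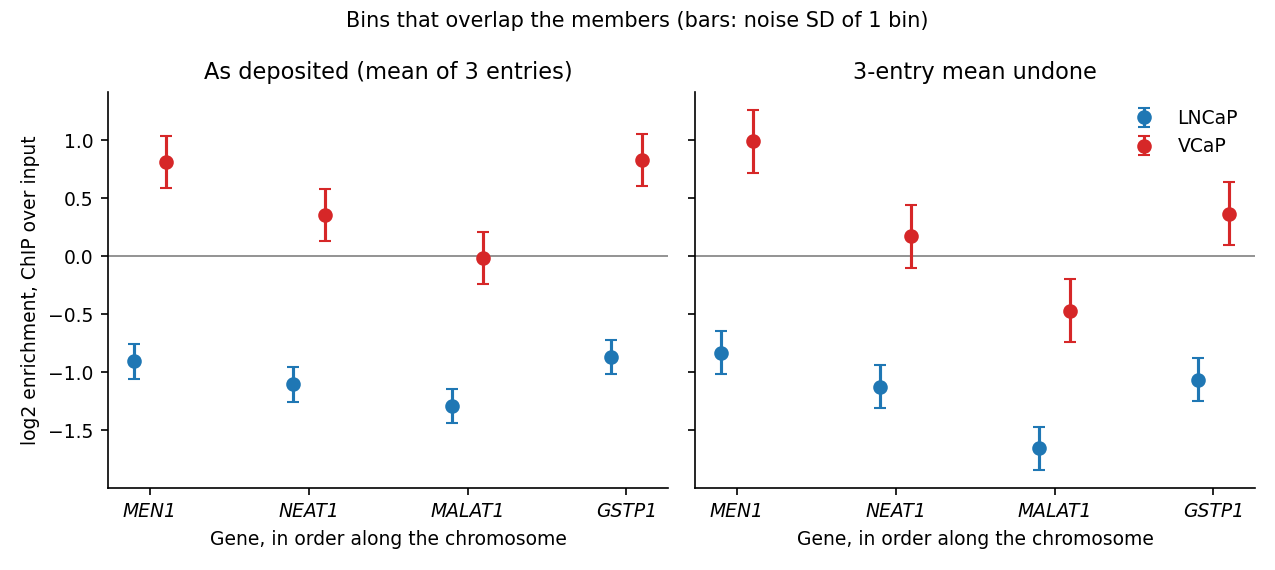
Log2 enrichment (y axis) of the bins that overlap each gene (x axis), as deposited (left) and with the running mean undone (right), for LNCaP (blue) and VCaP (red); bars are the noise SD of 1 bin, and there is 1 library pair per line. MALAT1 is the lowest of the 4 in either line, at -1.29 and -0.02 as deposited and at -1.66 and -0.47 with the mean undone.

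The genes between the members were followed by their order, since their hg19 positions were not used here, and the order was taken to be the same in hg19. The RefSeq table for GRCh38.p14 lists 182 genes between MEN1 and GSTP1, of which 115 code for protein, 23 are long noncoding RNAs and 13 are microRNAs. That is 8.84% of the 1301 protein-coding genes of chromosome 11, in 2.11% of its bins by the hg19 distance of 2.772 Mb. Between NEAT1 and MALAT1 the table lists 4 genes and 0 of them code for protein. Of a list of 18 known genes of the region, 14 lie between MEN1 and GSTP1 in that order.

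These 14 can be placed only within a stretch, and each stretch was low in LNCaP and mostly high in VCaP. EHD1, which shapes recycling endosomes, lies between MEN1 and NEAT1. The 14 bins there lay between -1.18 and -0.67 in LNCaP and between 0.51 and 1.24 in VCaP. The other 13 lie between MALAT1 and GSTP1. They include BANF1, a small protein that binds DNA and lamina proteins, RELA and FOSL1, which are subunits of the transcription factors NF-kappaB and AP-1, and KAT5, a histone acetyltransferase. CFL1 severs actin filaments, SF3B2 is a splicing factor, RAD9A acts in the DNA damage checkpoint and PPP1CA is a catalytic subunit of protein phosphatase 1. LTBP3 binds latent TGF-beta, PC is the mitochondrial pyruvate carboxylase and GRK2 is a kinase of G protein-coupled receptors. The 51 bins of this stretch lay between -1.35 and -0.81 in LNCaP and between -0.07 and 1.08 in VCaP. All 51 differed by more than 1. No bin between MEN1 and GSTP1 was above 0 in LNCaP. SF1 and SLC3A2 precede MEN1 in the order, and CCND1 and NUMA1 follow GSTP1. No value is given for those 4.

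Within the block LNCaP had a deeper left part. From 63280001 to 64240000 all 24 bins lay below -1.3, with a mean of -1.57 (SD over bins 0.13), and VCaP averaged 0.54 there. From there to 68080000 the 96 bins of LNCaP averaged -0.98 (SD over bins 0.16), and VCaP averaged 0.64. All 4 genes lie in this second, shallower part. In steps of 1 Mb from 63000001, the LNCaP means were -1.28, -1.01, -1.03, -0.98 and -1.03, and those of VCaP were 0.41, 0.85, 0.51, 0.64 and 0.58. The first of these steps includes bins outside the block, up to 63160000. After it the LNCaP means stayed between -1.03 and -0.98, while those of VCaP ranged from 0.51 to 0.85. Single bins were less even than these means. In the step from 64000001, which holds the end of the deep part, LNCaP bins lay between -1.67 and -0.48 (SD over bins 0.38, against 0.23 in VCaP). In the step from 68000001, which runs past the right edge, LNCaP averaged -0.30 and VCaP 0.68.

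The edges of the block were those of its VCaP state, and they matched the LNCaP profile on the left only. The last bin outside on the left held -0.45 in LNCaP and 0.06 in VCaP, and the first inside held -0.61 and 0.28. On the right the last bin inside held -0.22 and 0.28, and the first outside held -0.33 and -0.02. Taken over 8 bins on either side, the LNCaP median fell from 0.03 to -1.38 at the left edge, a step of -1.40 (noise SD 0.13). Neither edge is itself a border between states in LNCaP, as the bins just inside and outside were not in the associated state. The 1781 borders between states in LNCaP therefore serve only as a scale. Of these, 0.168% (3 borders) had a step at least as large in either direction. At the right edge the LNCaP medians were -0.31 outside and -0.38 inside, and 98.3% of LNCaP borders had a step at least as large. The largest LNCaP step near it, with the running mean undone, was -0.81 (inside minus outside) and lay 360 kb inside that edge. The LNCaP steps depend on the bins taken: medians of 4 bins gave -0.77 on the left and 0.15 on the right, and medians of 16 bins gave -1.50 and -0.71.

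In VCaP neither edge was steep. At the left edge the median rose from 0.07 to 0.32, a step of 0.25 (noise SD 0.19), and 78.3% of the 2242 VCaP borders had a step at least as large. At the right edge the medians were 0.58 outside and 0.64 inside, and 96.8% of VCaP borders had a step at least as large. The right edge rested on a narrow low of 3 bins from 68280001 to 68400000, with a mean of -0.05 and values down to -0.27, after which VCaP was high again. Medians of 4 bins gave 0.31 on the left and 0.74 on the right, and medians of 16 bins gave 0.07 and -0.16.

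Although the lines were far apart in level, their values rose and fell partly together along the block. Across the 128 bins Pearson r was 0.43 and Spearman rho 0.56. On the same deposited scale the rest of chromosome 11 gave 0.43 and 0.42 and the 59 flanking bins 0.23 and 0.26. The Pearson r of the block was thus no higher than that of the rest of the chromosome to 2 decimals. With a running mean of 25 bins (1 Mb) taken off each line, a scale chosen after the values were seen, the block gave 0.62 and 0.68, the rest of the chromosome 0.54 and 0.51 and the flanking bins 0.05 and 0.06. The bins share libraries and the running mean of the deposited values, so these are descriptions with no p, and no difference between them was tested.

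Single dips and peaks were also compared, picked after the values were seen. VCaP had 6 dips inside the block, each the lowest of 11 bins and at most 0.2. The dip at MALAT1 (65240001 to 65280000) held -0.02, and the lowest of the 6, from 65920001 to 65960000, held -0.07. LNCaP was below its own running mean at 6 of 6 dips, with values of -0.55 to -0.06 relative to it, and it was below in 57.0% of all bins of the block. The lowest LNCaP bin within 5 bins was the dip's own bin at 1 of the 6 dips, 1 bin away at 3 and 4 bins away at 2. VCaP had 7 peaks of at least 0.9, and LNCaP was above its running mean at 7 of 7, with values of 0.08 to 0.56 relative to it, against 43.0% of all bins of the block. The running mean for the dip at -0.55 reaches past the left edge, and that for the peak at 0.56 takes in bins of the deep part. These 2 values therefore also hold the broad steps of LNCaP. The smallest values, -0.06 and 0.08, were less than the noise SD of 0.15 of a LNCaP bin. The peak nearest to GSTP1, from 67280001 to 67320000, is the bin just before the gene and held 0.98 in VCaP and -0.81 in LNCaP.

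**Figure D4:**
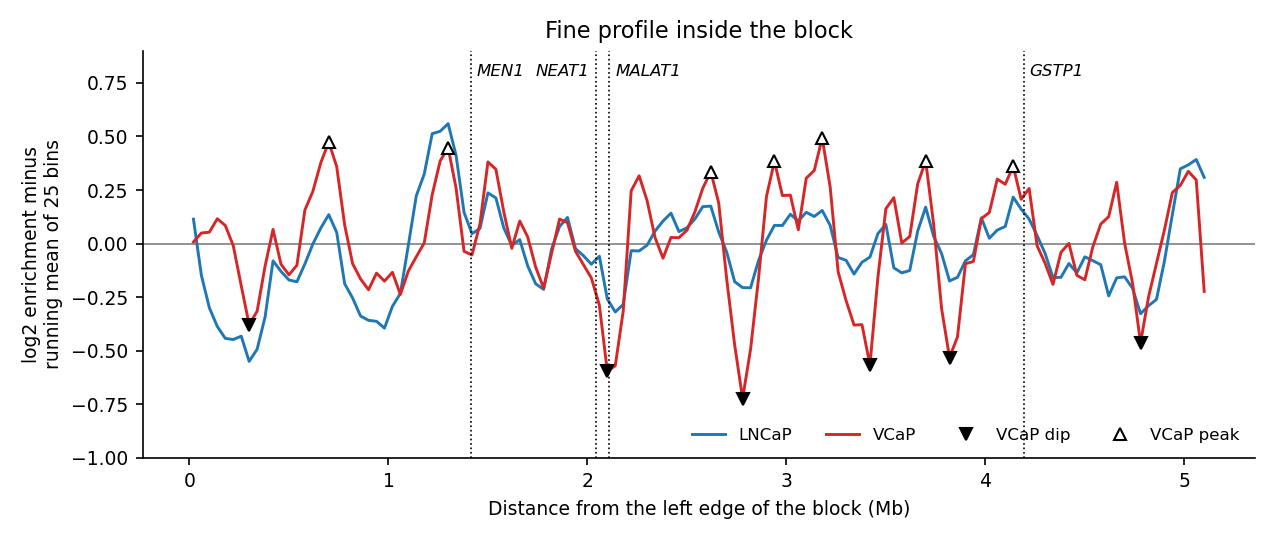
Log2 enrichment minus a running mean of 25 bins (y axis) inside the block, against the distance from its left edge in Mb (x axis), for LNCaP (blue) and VCaP (red), with VCaP dips and peaks marked. At MALAT1 both lines are below 0, with the LNCaP low 1 bin after the VCaP dip, and GSTP1 lies in the bin after a VCaP peak.

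The block was also long, which follows from how it was chosen. A difference over 1 ran through 125 adjacent bins, from 63200001 to 68200000, and no other of the 748 such runs in the genome was as long. The next were 75 bins on chromosome 13 from 109720001 to 112800000, with means of -1.71 in LNCaP and 0.45 in VCaP, and 47 bins on chromosome 19 from 46680001 to 48560000, with -0.78 and 0.62. Close to that run on either side, chromosome 19 held runs of 38 bins (45120001 to 46640000) and 27 bins (48600001 to 49680000). In all of these the LNCaP mean was far below 0 and the VCaP mean above it. By LNCaP below -0.5 alone the block was split into runs of 90 and 32 bins. On that measure chromosomes 19 and 13 had runs nearly as long as the first, of 87 and 81 bins. Whether the copy number of the block differs between the lines, or between antibody and input DNA, was not tested.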

How the data were processed

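Lamin B1 ChIP-seq of LNCaP and VCaP, 1 antibody and 1 input library per line, was grouped by the sample titles. The deposited log2 values are enrichment over input per 40 kb bin; the submitters' processing notes name STAR and hg19, and scaling, filters and depth are not given in the sources used here. The deposited states (AD, iAD) come from a hidden Markov model, per the name of the table, and AD, with the higher mean in both lines, was taken as associated. All value columns were mapped to a line.

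Bins wholly inside the windows were used, and a gene's value is the mean of its bins weighted by overlap. Each deposited value proved to be a mean of 3 entries, which was undone per chromosome. The means alone fix the entries only up to a pattern that repeats every 3 entries, so undoing them took an assumption. Noise is 1.4826 times the median absolute difference of bins 3 apart, divided by the square root of 2. A mean of n bins counts as 1 value per 3 bins. No window bin lay beside a gap of the table. No test was run, as each group has 1 library. Of the procedures, only the undoing of the mean and the noise estimate were tried on simulated data. Gene order and promoters come from RefSeq tables of GRCh38.p14, whose coordinates were not set against hg19. The named genes are the 4 members and 18 listed genes, some of which are not reported here. The members and lists were chosen with earlier results of these data known. Alternatives were the undone mean, centring, quantile normalization, medians, other flanks and other bins. The work used scipy 1.17.1, matplotlib 3.10.9, pandas 2.3.3 and numpy 2.4.6 under Python 3.11.15.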

Additional observations from a re-analysis of the deposited data

Results flagged for a closer look

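The block and 3 of its 4 genes had log2 enrichment of opposite sign: LNCaP values were negative and VCaP values positive. VCaP minus LNCaP was 1.67 for the mean of the block, 1.72 at MEN1, 1.46 at NEAT1 and 1.70 at GSTP1. With 1 library pair per line, the difference was not tested. The signs rest on the deposited scaling, which is not given. MALAT1 was below 0 in both lines.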

How the results depend on the processing

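Other settings gave 66 values for 17 results. The block mean difference was 1.54 after centring the lines on their genome medians, which removes a shift of 0.13 between the lines, and 1.48 after quantile normalization. Inside minus outside in LNCaP was -1.16 against the rest of chromosome 11 and -1.04 without 5 bins on either side of each edge. The same 2 choices gave 0.38 and -0.0502 in VCaP, so the sign of the small VCaP value is not settled. Medians of 4 bins gave steps of -0.77 in LNCaP at the left edge, 0.15 in LNCaP at the right edge and 0.74 in VCaP at the right edge. Medians of 16 bins gave -0.71 in LNCaP and -0.16 in VCaP at the right edge, and the undone mean gave 0.0219 in LNCaP there. The cause was not tested. The correlation inside the block was 0.62 with the running mean taken off, an alternative chosen after seeing the data. NEAT1 in VCaP was -0.0177 in the bin 1 downstream, and MALAT1 in VCaP was 0.0138 there and 0.20 over 5 bins, so its sign rests on values near 0. Of the values that answer a comparison, 21 others stayed within the noise. The number of bins past 2 noise SD was 127 after centring and 128 with the noise taken from the difference itself, also chosen after seeing the data. No paired analysis was possible because a group holds only 1 library. Without read depth, single bins are limited by the noise between bins.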
